A study of Homo sapiens with 12 samples.

Results

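Aminoacyl-tRNA synthetases are the enzymes that join each amino acid to its transfer RNA. The 36 human synthetase genes described here were taken by name from a table of 58735 gene rows. They comprise 20 genes for cytosolic enzymes, whose names carry no final 2, and 16 genes for mitochondrial enzymes, whose names end in 2. All 36 were found once in the table of each cell line and all 36 passed the filter on low counts in every comparison. The gene names are those of the deposited tables, so AARS, GARS and most other cytosolic names stand for the genes now called AARS1, GARS1 and so on.

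RNA-seq was run on 12 samples of 2 neuroblastoma cell lines, KELLY, which carries an amplified MYCN gene, and SK-N-AS, which does not. Cells received either the solvent DMSO or Erastin for 24 h, at 1 µM in KELLY and at 2 µM in SK-N-AS. Each of the 4 groups held 3 samples, which were wells seeded in parallel, so p-values measure the spread between wells of 1 cell line and may be technical. Line and dose changed together and cannot be told apart.

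Erastin blocks the antiporter that brings cystine into the cell in exchange for glutamate, and cystine is reduced to cysteine inside. When an amino acid runs short, its transfer RNA stays uncharged, the kinase GCN2 senses this, and the transcription factor ATF4 is translated more. ATF4 is known to act on genes for amino acid transport, amino acid synthesis and many cytosolic synthetases. Cytosolic synthetases serve protein synthesis on cytoplasmic ribosomes. Most mitochondrial synthetases are separate nuclear genes whose products are imported, and they charge the transfer RNAs of the mitochondrial genome. GARS and KARS are exceptions, since each supplies both compartments from 1 gene. EPRS joins glutamate and proline charging in 1 protein, and FARSA and FARSB are the subunits of 1 enzyme.

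In SK-N-AS a part of the cytosolic class rose. Of the 20 cytosolic genes, 11 rose at an adjusted p under 0.05 (edgeR quasi-likelihood test, Benjamini-Hochberg over all 16095 genes tested), where 0.46% of all genes rose by that rule. None of the 16 mitochondrial genes passed it in either direction with edgeR or DESeq2. At an unadjusted p under 0.05 (edgeR), 2 of them had lower values, as did 784 of all 16095 genes. In KELLY, 6 of 20 cytosolic genes and 0 of 16 mitochondrial genes rose past the threshold of the study methods (unadjusted p of at most 0.05 with a change of at least 1.5-fold), against 1.29% of all genes. No synthetase gene of KELLY reached an adjusted p under 0.05, a rule that 0.00615% of all genes passed as rising. At an unadjusted p under 0.05 (edgeR), 7 members, all cytosolic, had higher values, as did 258 of all 16258 genes. DESeq2 called 4 members at an adjusted p under 0.05, and 31 of all genes in either direction. The 9 cytosolic genes that did not rise in SK-N-AS included QARS, LARS, KARS, HARS, RARS, FARSB, VARS and FARSA. In bulk RNA, a smaller share of cells with a transcript and less of it per cell cannot be told apart.

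The promoter sequences are shown first because 7 of the 11 rising genes held a short motif there. The motif TGATGNAA is the core of the element that ATF4 binds together with C/EBP family proteins. It was searched on both strands of the RefSeq promoter windows (GRCh38.p14), each running from 250 bases before to 50 after an annotated start, and 30 of the 36 genes had 1 or 2 windows. Capitals mark the match, which reads as the reverse complement where it lay on the opposite strand, and each sequence is given 5′ to 3′ on the strand of its gene.
GARS (chr7:30594834-30594863, plus strand): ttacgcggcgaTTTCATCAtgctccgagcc
CARS (chr11:3057407-3057436, minus strand): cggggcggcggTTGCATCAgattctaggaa
AARS (chr16:70289675-70289704, minus strand): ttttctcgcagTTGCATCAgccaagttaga
MARS (chr12:57488053-57488082, plus strand): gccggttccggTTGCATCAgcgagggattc
TARS (chr5:33440956-33440985, plus strand): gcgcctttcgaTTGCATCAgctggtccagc
IARS (chr9:92293692-92293721, minus strand): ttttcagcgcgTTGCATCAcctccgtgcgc
NARS (chr18:57621804-57621833, minus strand): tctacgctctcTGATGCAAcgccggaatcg
YARS2 (chr12:32756076-32756105, minus strand): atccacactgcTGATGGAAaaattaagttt

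These are all the synthetase promoters with a match. Of the 11 cytosolic genes that rose in SK-N-AS, 10 had a window and 7 of these (70%) held the motif. Of the 9 that did not rise, 6 had a window and 0 held it. Of the 16 mitochondrial genes, 14 had a window and 1 (7.14%), YARS2, held it. Among all 27305 genes with a window, 4.46% held the motif. In TARS, CARS and MARS the first base of the match lay within 4 bases of the annotated start (offsets of 2, -2 and -4), in IARS at -13, in NARS at 14 and in GARS at -33. In AARS and YARS2 it lay farther upstream, at -187 and -197. With the variable base fixed as TGATGCAA, the match remained in 6 of the 10 rising cytosolic genes and in 1.08% of all genes, GARS and YARS2 being the members that lost it. EPRS, SARS and WARS rose without a match in their windows. The E-box CACGTG, which MYC family proteins bind, was found in 1 of 10 rising cytosolic, 0 of 6 other cytosolic and 3 of 14 mitochondrial genes (CARS2, EARS2 and MARS2), against 8.77% of all genes. The rising group was set by the expression values, so these shares are a description, and a match of letters is not a measured binding site.

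Depth and labels were checked first. Total counts ran from 24169796 to 29835670 per library, and the 36 genes together took between 0.444% and 0.620% of them. MYCN had 116651 to 159802 counts in the 6 KELLY libraries and 1 to 11 in the 6 SK-N-AS libraries. The labels call KELLY neuronal and SK-N-AS neuroblast cells. All 9 noradrenergic neuroblast markers (such as TH and DBH) were higher in KELLY controls at an adjusted p under 0.05, and 4 of 5 mesenchymal markers (VIM, FN1, YAP1 and PRRX1) were higher in SK-N-AS controls. The neuroblast markers were thus the lower in the line labelled neuroblast. The leukocyte gene PTPRC had 12835 to 16496 counts in each SK-N-AS library and 0 in KELLY, while CD3E and LYZ had 0 in all 12 libraries. Haemoglobin HBB was highest in KELLY DMSO 1, at 208 counts. Libraries of 1 group differed in how their counts followed gene GC content. The Spearman correlation between transcript GC content and the log2 ratio of a library over its line's average ran from -0.86 to 0.89 across 11101 genes in KELLY and from -0.80 to 0.81 across 10972 genes in SK-N-AS, and it had either sign within every group. Values with this trend removed from each library (GC-corrected) are given for the genes they bear on most.

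GARS, glycyl-tRNA synthetase (chr7:30580533-30634033, GRCh38), rose most in SK-N-AS. Its level was 144, 155 and 164 CPM (counts per gene scaled to the size of the library) in the DMSO libraries and 381, 468 and 438 CPM with Erastin. Every treated library was more than double every control library. The log2 fold change was 1.48 (SE 0.093, adjusted p = 6.18e-06). In KELLY the DMSO libraries held 375, 350 and 359 CPM and the Erastin libraries 525, 620 and 566 CPM. The groups did not overlap, and the log2 fold change was 0.66 (SE 0.13, unadjusted p = 9.35e-04, adjusted p = 0.636, edgeR). GC-corrected, the KELLY value was 0.71 with an adjusted p of 0.00398, by which rule 0.191% of all genes rose. About 11% of the GARS exons (10.9%) lie opposite a divergent non-coding gene, and whether reads were counted by strand is not given in the sources used here.

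CARS charges cysteine, the amino acid whose supply Erastin limits (chr11:3000922-3057613). In SK-N-AS it stood at 55.3, 51.6 and 50.8 CPM in DMSO and at 125, 152 and 133 CPM with Erastin. The log2 fold change of 1.39 (SE 0.095) had an adjusted p of 1.11e-05. In KELLY it was the synthetase with the largest change. Its levels there were 27.0, 36.3 and 34.1 CPM in DMSO and 64.5, 61.6 and 68.1 CPM with Erastin, again without overlap. That is a log2 fold change of 1.00 (SE 0.17, unadjusted p = 3.78e-04, adjusted p = 0.410), and 0.90 after GC correction (adjusted p = 0.00366). DESeq2 gave CARS in KELLY an adjusted p of 1.62e-04, and over the 18 alternatives its adjusted p ranged from 1.62e-04 to 0.961.

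AARS, alanyl-tRNA synthetase, rose from 123, 116 and 103 CPM to 237, 287 and 244 CPM in SK-N-AS. The log2 fold change was 1.18 (SE 0.099, adjusted p = 6.71e-05). In KELLY its DMSO libraries were spread widely, at 173, 264 and 230 CPM, below all Erastin libraries at 393, 290 and 328 CPM. The KELLY change of 0.60 (SE 0.20, adjusted p = 0.770) passed the study threshold, and no longer did so without DMSO 1 (0.45) or without Erastin 1 (0.48). GC-corrected it was 0.49 (adjusted p = 0.109), and without both of these libraries it was 0.33. AARS kept the study call in 12 of 18 alternatives. YARS, tyrosyl-tRNA synthetase, rose from 120, 126 and 115 CPM to 223, 248 and 222 CPM in SK-N-AS (0.95, SE 0.082, adjusted p = 8.19e-05). KELLY had 127, 141 and 125 CPM of YARS in DMSO and 218, 193 and 184 CPM with Erastin, a change of 0.60 (SE 0.14, adjusted p = 0.770), or 0.52 GC-corrected (adjusted p = 0.0497). Its KELLY call at the study threshold was lost without DMSO 1 (0.58), without DMSO 3 (0.56) and without Erastin 1 (0.52).

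**Figure D1:**
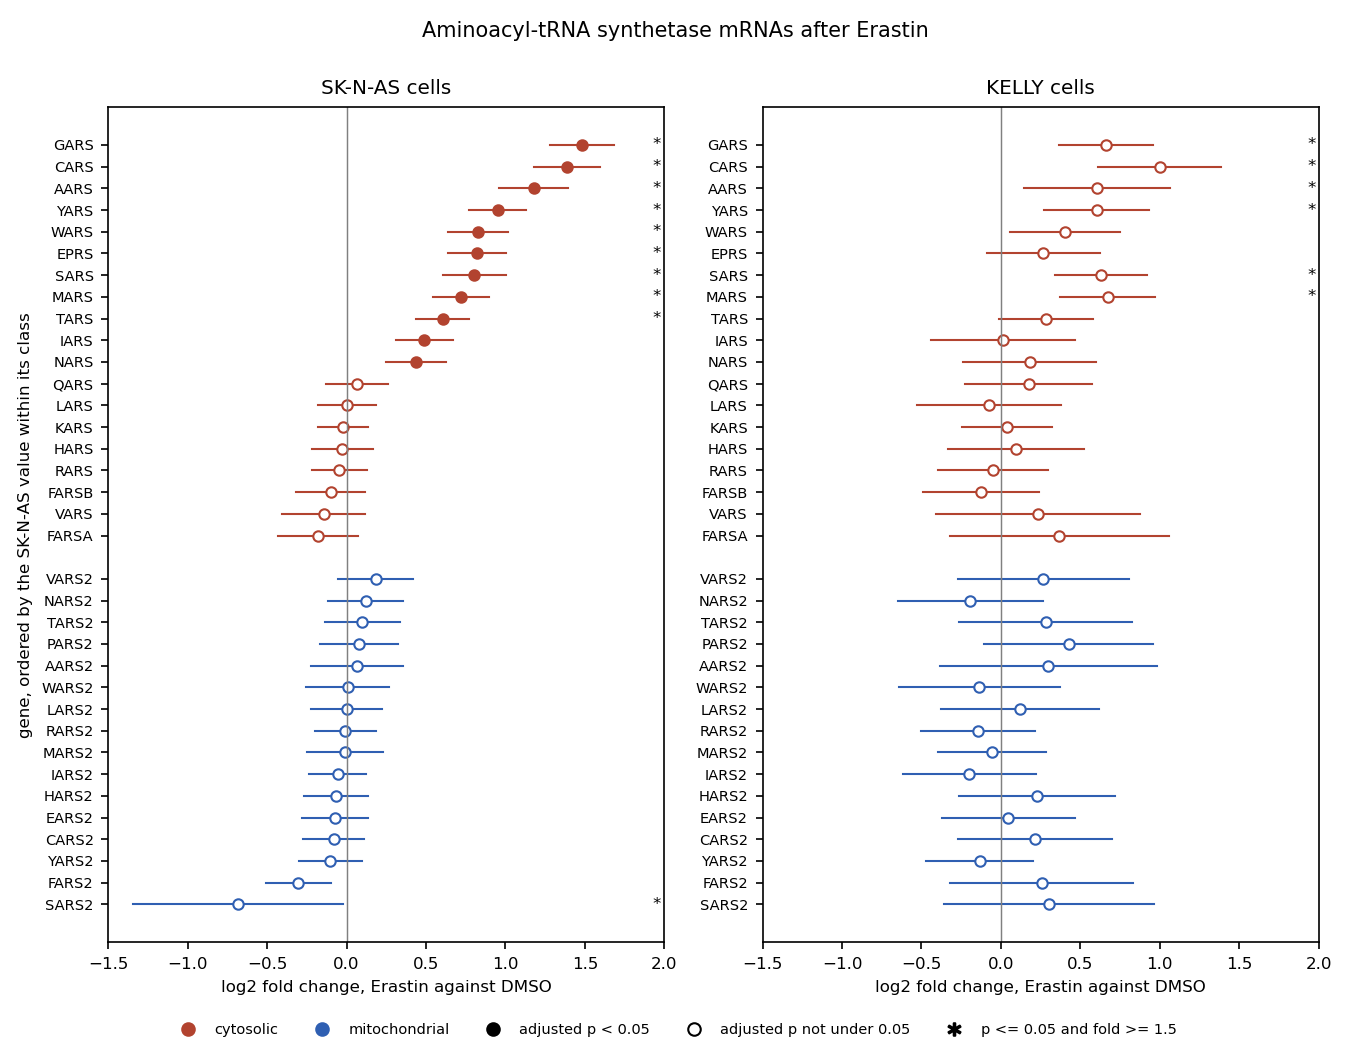
Log2 fold change of the named synthetase genes (point) with the 95% interval (line) after Erastin, in SK-N-AS on the left and KELLY on the right; filled points have an adjusted p under 0.05 and stars mark the threshold of the study methods. The top 11 cytosolic genes of SK-N-AS run from 0.44 to 1.48 and the other cytosolic genes drawn from -0.18 to 0.06, and the KELLY intervals are wider.

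SARS and MARS, which charge serine and methionine, changed by like amounts in the lines. SARS was at 111, 122 and 107 CPM in SK-N-AS controls and at 181, 218 and 192 CPM with Erastin (0.80, SE 0.092, adjusted p = 7.93e-04). In KELLY it went from 256, 281 and 256 CPM to 421, 411 and 394 CPM (0.63, SE 0.12, adjusted p = 0.656), or 0.52 GC-corrected (adjusted p = 0.105). No treated library of either line overlapped its controls. MARS was at 248, 243 and 228 CPM in SK-N-AS controls and at 369, 427 and 378 CPM with Erastin (0.72, SE 0.082, adjusted p = 7.93e-04). In KELLY it went from 271, 322 and 308 CPM to 464, 489 and 481 CPM (0.67, SE 0.13, adjusted p = 0.636), or 0.56 GC-corrected (adjusted p = 0.105). DESeq2 gave MARS an adjusted p of 0.0127 and SARS one of 0.0187 in KELLY. With the GC correction both genes fell short of 1.5-fold, and each kept the study call in 16 of 18 alternatives. MARS shares 65 bases, 2.32% of its exons, with DDIT3 on the opposite strand. DDIT3, itself a stress-response gene, had 26 to 117 counts in any library. Reads in the shared bases could have been divided or set aside, so these counts do not show how such reads were assigned.

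WARS and EPRS rose in SK-N-AS and passed neither rule in KELLY. WARS, for tryptophan, stood at 125, 135 and 130 CPM in SK-N-AS controls and at 207, 249 and 232 CPM with Erastin (0.83, SE 0.087, adjusted p = 4.16e-04). KELLY held far less of it, at 37.9, 40.3 and 39.8 CPM in DMSO and 47.3, 57.0 and 51.5 CPM with Erastin (0.40, SE 0.15, adjusted p = 0.770), or 0.38 GC-corrected. These groups did not overlap, but the fold stayed under 1.5. EPRS, for glutamate and proline, stood at 234, 255 and 274 CPM in SK-N-AS controls and at 423, 466 and 446 CPM with Erastin (0.82, SE 0.083, adjusted p = 3.51e-04). In KELLY its libraries overlapped, with 604, 472 and 504 CPM in DMSO and 554, 693 and 652 CPM with Erastin. The KELLY difference was 0.27 (SE 0.15, adjusted p = 0.770), or 0.44 GC-corrected (adjusted p = 0.0777).

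TARS, IARS and NARS, for threonine, isoleucine and asparagine, had the smallest increases that passed the test in SK-N-AS. TARS was at 135, 145 and 141 CPM in DMSO and at 205, 216 and 214 CPM with Erastin (0.61, SE 0.076, adjusted p = 0.00179), just past 1.5-fold. In KELLY the TARS libraries were at 218, 222 and 229 CPM and at 249, 283 and 282 CPM (0.29, SE 0.13, adjusted p = 0.770), again apart, or 0.43 GC-corrected (adjusted p = 0.370). IARS was at 337, 354 and 396 CPM and at 484, 515 and 516 CPM in SK-N-AS (0.49, SE 0.082, adjusted p = 0.0148). NARS was at 239, 269 and 292 CPM and at 350, 360 and 363 CPM (0.44, SE 0.086, adjusted p = 0.0444). Both were below 1.5-fold, so 9 of the 20 cytosolic genes passed the study threshold in SK-N-AS, where 1.34% of all genes rose past it. Both calls were also lost when DMSO 2, Erastin 1, Erastin 2 or Erastin 3 was left out, with the log2 fold change of IARS between 0.44 and 0.56 and that of NARS between 0.36 and 0.51 over all omissions, and in the fit of all 12 samples together. TARS stayed at 0.58 to 0.63. The other 9 rising genes kept an adjusted p under 0.05 under all 17 alternatives.

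In KELLY, IARS and NARS showed no such increase as counted. IARS had 405, 294 and 321 CPM in DMSO and 268, 392 and 367 CPM with Erastin, fully overlapping (0.01, SE 0.20, adjusted p = 0.982). NARS had 202, 151 and 163 CPM in DMSO and 163, 222 and 199 CPM with Erastin (0.18, SE 0.18, adjusted p = 0.770). GC-corrected, IARS was at 0.15 with a 95% interval of -0.04 to 0.34, and NARS at 0.36 with an interval of 0.22 to 0.51 (adjusted p = 0.116). These 2 genes and EPRS and TARS have transcripts of 41.7% to 43.3% GC, and KELLY DMSO 1, the library richest in low-GC genes, held the highest DMSO value of IARS, NARS and EPRS.

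**Figure D2:**
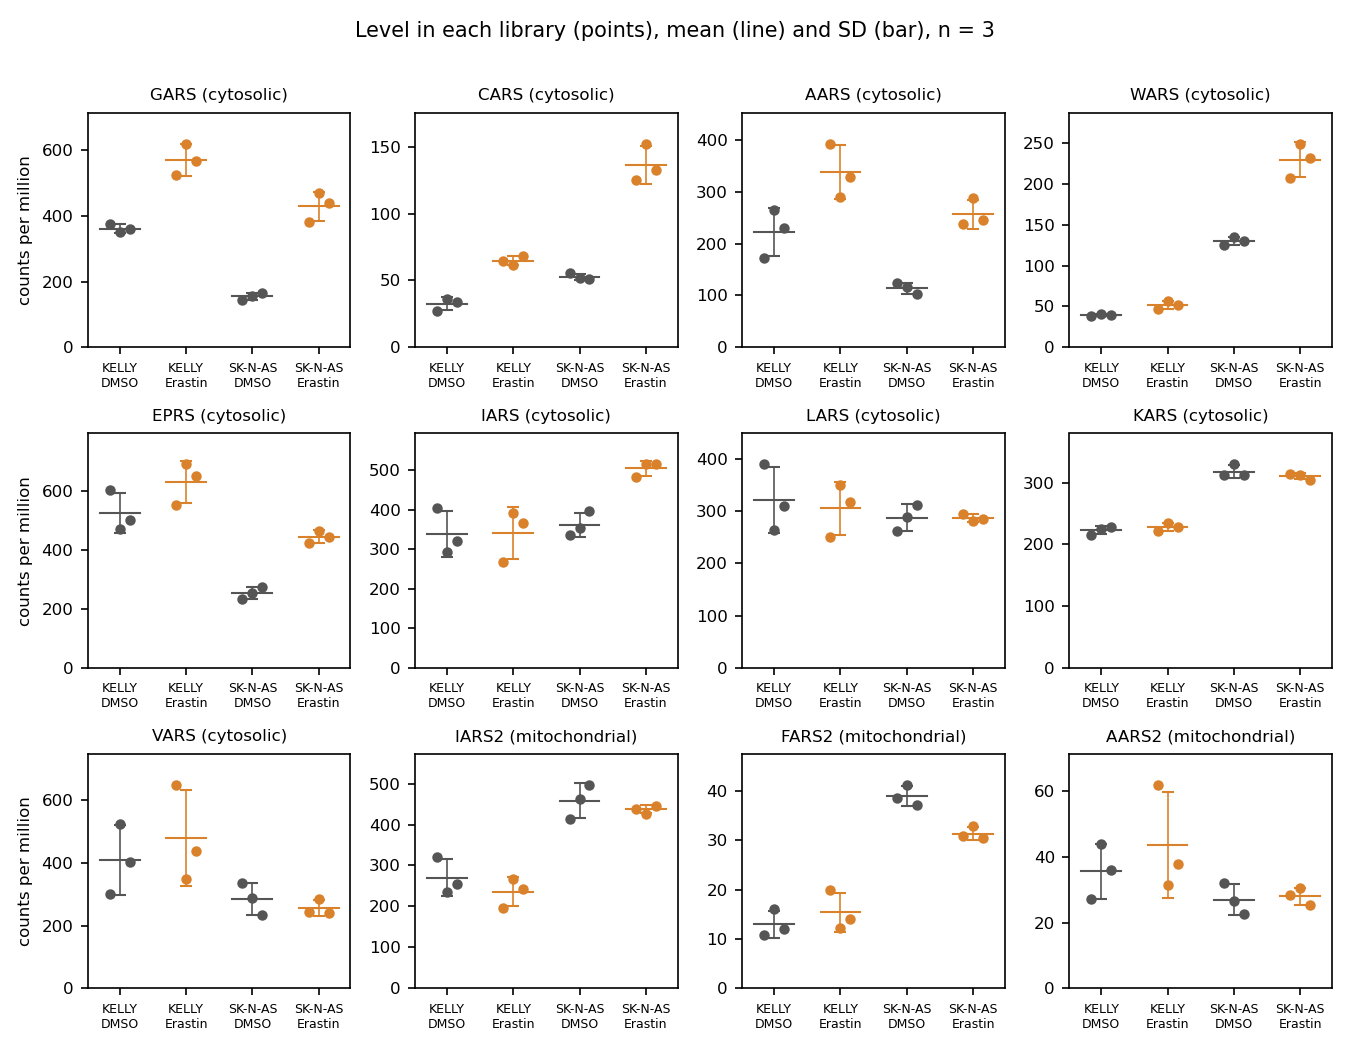
CPM of 12 synthetase genes in each library, with the mean and SD of each group of 3. GARS, CARS, AARS and WARS are higher in every Erastin library than in every control of the same line, LARS, KARS and VARS overlap in both lines, and mitochondrial IARS2 and AARS2 overlap in both.

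The SEs of the 9 cytosolic genes that did not rise in SK-N-AS ran from 0.072 to 0.12, against 0.076 to 0.099 for the 11 that did, and the upper ends of the 95% intervals of the 9 from 0.07 (FARSA) to 0.26 (QARS), all under the 0.585 that corresponds to 1.5-fold. In KELLY the corresponding upper ends ran from 0.24 (FARSB) to 1.06 (FARSA), so that line left more room. Over the 17 SK-N-AS alternatives none of the 9 passed an adjusted p of 0.05 as rising, and FARSA passed it as falling under 2 of them.

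Among these 9, LARS, KARS, QARS and RARS sit with EPRS, IARS and MARS in the multi-synthetase complex, a large assembly held by scaffold proteins. LARS, for leucine, was at 262, 290 and 312 CPM in SK-N-AS controls and at 295, 281 and 286 CPM with Erastin (0.01, SE 0.084, adjusted p = 0.993). In KELLY it was at 391, 265 and 310 CPM and at 250, 350 and 317 CPM (-0.07, SE 0.20, adjusted p = 0.886), or 0.12 GC-corrected (adjusted p = 0.687). Groups overlapped in both lines. KARS, for lysine, was the steadiest gene, at 312, 330 and 312 CPM and at 315, 312 and 305 CPM in SK-N-AS (-0.02, SE 0.072, adjusted p = 0.964). Its KELLY libraries held 216, 224 and 228 CPM and 222, 234 and 229 CPM (0.04, SE 0.12, adjusted p = 0.903). KARS thus stayed near 0 change in SK-N-AS, while GARS, the other enzyme shared by both compartments, had the largest increase.

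QARS, for glutamine, had 105, 110 and 92.0 CPM in SK-N-AS controls and 102, 108 and 108 CPM with Erastin (0.06, SE 0.090, adjusted p = 0.910). In KELLY it had 165, 225 and 186 CPM and 249, 197 and 203 CPM (0.18, SE 0.17, adjusted p = 0.770), or 0.02 GC-corrected. RARS, for arginine, had 176, 197 and 196 CPM and 187, 179 and 182 CPM in SK-N-AS (-0.04, SE 0.080, adjusted p = 0.934). In KELLY it had 107, 106 and 110 CPM and 90.3, 117 and 103 CPM (-0.05, SE 0.15, adjusted p = 0.900), or 0.13 GC-corrected (adjusted p = 0.749). All 4 of these pairs of groups overlapped.

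HARS, VARS, FARSA and FARSB work outside that complex. HARS, for histidine, had 105, 104 and 89.8 CPM in SK-N-AS controls and 95.4, 100 and 95.2 CPM with Erastin (-0.03, SE 0.088, adjusted p = 0.964). In KELLY it had 57.5, 79.6 and 67.0 CPM and 84.3, 64.4 and 68.8 CPM (0.10, SE 0.19, adjusted p = 0.845), or -0.01 GC-corrected. Of the HARS exons, 11.3% lie opposite the gene WDR55. VARS, for valine, had 335, 287 and 233 CPM and 245, 284 and 240 CPM in SK-N-AS (-0.14, SE 0.12, adjusted p = 0.832). Its KELLY libraries were widely scattered, at 301, 525 and 402 CPM and at 650, 350 and 437 CPM (0.23, SE 0.28, adjusted p = 0.775), or -0.11 GC-corrected. FARSA, the catalytic subunit for phenylalanine, had 192, 179 and 140 CPM and 150, 164 and 134 CPM in SK-N-AS (-0.18, SE 0.12, adjusted p = 0.753). In KELLY it had 65.0, 131 and 99.5 CPM and 168, 98 and 114 CPM (0.37, SE 0.30, adjusted p = 0.770), or 0.06 GC-corrected. FARSB, the partner subunit, had 96.5, 117 and 120 CPM and 109, 98.1 and 103 CPM in SK-N-AS (-0.10, SE 0.099, adjusted p = 0.864). In KELLY it had 181, 139 and 151 CPM and 131, 151 and 150 CPM (-0.12, SE 0.16, adjusted p = 0.782), or 0.12 GC-corrected. Both subunits of the enzyme thus overlapped between treated and control libraries in each line.

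Counted by assembly, 3 of the 8 enzymes of the multi-synthetase complex (EPRS, MARS and IARS) and 8 of the 12 outside it rose in SK-N-AS at an adjusted p under 0.05, with median log2 fold changes of 0.03 and 0.70. In KELLY 1 of 8 and 5 of 12 passed the study threshold, with medians of 0.03 and 0.39. GC-corrected, 0 of 8 and 2 of 12 did in KELLY, as did 183 of all 16258 genes as rising. The medians were then 0.14 and 0.41, and all 8 enzymes of the complex had positive values. By structural class, 6 of 10 class I and 5 of 10 class II enzymes rose in SK-N-AS, and 3 of 10 of each in KELLY at the study threshold. Every Erastin library lay above every DMSO library for 11 of 20 cytosolic genes in SK-N-AS, against 6.98% of all genes, and for 8 of 20 in KELLY, against 4.2%. Every Erastin library lay below every DMSO library for 2 of 16 mitochondrial genes in SK-N-AS (FARS2 and YARS2), against 7.81% of all genes, and for 1 of 16 in KELLY (YARS2), against 4.34%. YARS2, for mitochondrial tyrosine, was at 34.3, 35.6 and 32.9 CPM in SK-N-AS controls and at 31.3, 32.0 and 31.8 CPM with Erastin (-0.10, SE 0.091, adjusted p = 0.847). Its KELLY libraries held 59.9, 53.2 and 51.7 CPM and 49.4, 49.6 and 51.1 CPM (-0.13, SE 0.15, adjusted p = 0.770). Over the 20 cytosolic genes the median log2 fold change was 0.46 in SK-N-AS and 0.25 in KELLY, beside -0.01 and 0.01 over all genes tested.

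Summed over genes, cytosolic synthetase transcripts went from 3603 ± 72.6 CPM (SD, n = 3) to 4970 ± 229 CPM in SK-N-AS and from 4255 ± 74.2 to 5289 ± 45.0 CPM in KELLY. The sums of the 11 genes that rose in SK-N-AS were 1948 ± 67.1 and 3391 ± 212 CPM there and 2612 ± 71.7 and 3550 ± 173 CPM in KELLY. The other 9 genes summed to 1655 ± 59.8 and 1580 ± 36.7 CPM in SK-N-AS and to 1642 ± 104 and 1740 ± 141 CPM in KELLY. The split into 11 and 9 was set by the same SK-N-AS libraries, so the SK-N-AS sums of these groups only describe that choice. The mitochondrial sum was 934 ± 21.3 and 905 ± 3.52 CPM in SK-N-AS and 852 ± 16.9 and 851 ± 24.5 CPM in KELLY. The cytosolic CPM sum was therefore 3.86 times the mitochondrial one in SK-N-AS controls and 5.49 times with Erastin, and 5.00 and 6.22 times in KELLY. These sums are not scaled to transcript length, and they count GARS and KARS, which serve both compartments, as cytosolic.

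The 16 mitochondrial genes stayed close to zero change in SK-N-AS. Their median log2 fold change was -0.01, and 14 of them lay between -0.10 (YARS2) and 0.18 (VARS2). The exceptions were FARS2 and SARS2. FARS2, for phenylalanine (chr6:5261044-5829192), was at 38.5, 41.3 and 37.2 CPM in DMSO and at 30.8, 32.9 and 30.4 CPM with Erastin. Each treated library was below each control, with a difference of -0.30 (SE 0.093, unadjusted p = 0.00688, adjusted p = 0.268). GC-corrected, FARS2 fell by 0.30 on the log2 scale with an adjusted p of 0.00664, a rule by which 3.81% of all genes fell and 3.16% rose, and it was the 1 mitochondrial gene called that way. In KELLY FARS2 stood at 10.7, 16 and 12.1 CPM and at 19.9, 12.2 and 14.2 CPM (0.26, SE 0.25, adjusted p = 0.770).

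SARS2, for serine (chr19:38915266-38930763), was the lowest of all members, with 26 to 101 counts per library. In SK-N-AS it was at 2.57, 1.35 and 1.62 CPM in DMSO and at 1.47, 0.952 and 1.01 CPM with Erastin, with overlap. It fell past the study threshold (-0.68, SE 0.30, unadjusted p = 0.0442, adjusted p = 0.544), by which 1.33% of all genes fell in SK-N-AS and 0.744% in KELLY. The call was lost without DMSO 1 (-0.36), without Erastin 2 (-0.55) and without Erastin 3 (-0.60), and in DESeq2 and limma-voom. In KELLY SARS2 was at 2.14, 2.92 and 2.80 CPM and at 4.14, 2.29 and 3.26 CPM (0.30, SE 0.29, adjusted p = 0.770). A readthrough gene on the same strand covers 77.5% of its exons, so reads could have been divided or set aside between the annotations.

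In KELLY the values of both classes followed GC content. As counted, 8 of the 16 mitochondrial genes had a log2 fold change above 0.2. So did 11 of the 20 cytosolic genes and 4915 of all 16258 genes tested. The mitochondrial median was 0.17. Across the 16 genes the Spearman correlation of log2 fold change with transcript GC content was 0.88, and 0.29 after GC correction (all points share the same 6 libraries). Across the 20 cytosolic genes it was 0.61, and -0.04 after GC correction. PARS2, for proline, had the highest value at 0.43 (adjusted p = 0.770), from 6.80, 11.8 and 8.64 CPM to 13.1, 11.5 and 11.9 CPM, and it passed the study threshold when DMSO 2 was left out (0.65). The GC-corrected median was 0.04, and without the pair of KELLY libraries with the steepest GC trends (DMSO 1 and Erastin 1, chosen after seeing the data) it was -0.05. The cytosolic median moved little, to 0.30 and 0.32. With that correction the KELLY cytosolic genes at an adjusted p under 0.05 were CARS, GARS and YARS.

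**Figure D3:**
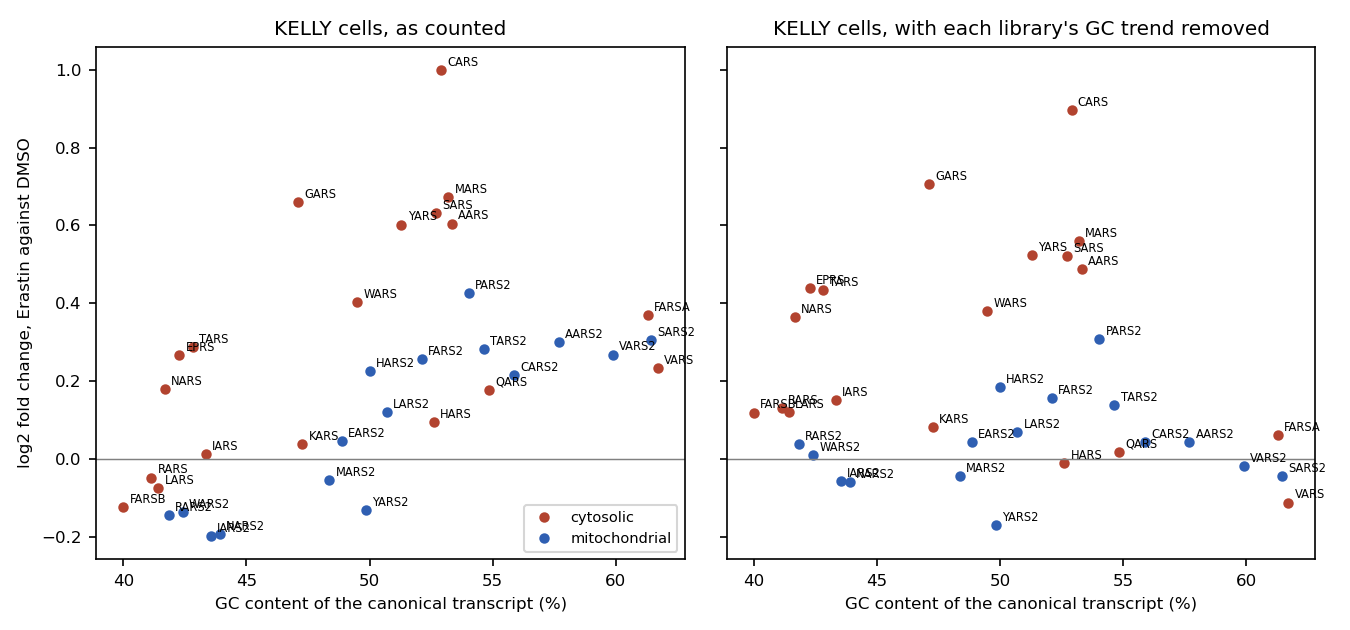
Log2 fold change in KELLY of the named synthetase genes against the GC content of the transcript, as counted on the left and with each library's GC trend removed on the right. Mitochondrial genes run from -0.20 at about 43.5% GC to 0.43 at 54.0% GC on the left and lie nearer to 0 on the right, while CARS and GARS stay at 0.90 and 0.71.

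Set against each other amino acid by amino acid, 17 pairs of a cytosolic and a mitochondrial enzyme could be formed, with EPRS set against both EARS2 and PARS2 and FARS2 against both FARSA and FARSB. In SK-N-AS the cytosolic log2 fold change exceeded the mitochondrial one in 15 pairs, with a median difference of 0.54. The ratio of the cytosolic to the mitochondrial enzyme was higher in all 3 Erastin libraries than in all controls in 11 pairs and lower in 1. For cysteine the ratio of CARS to CARS2 ran from 0.898 to 0.985 in controls and from 2.39 to 2.92 with Erastin. For isoleucine, the ratio of IARS to IARS2 counts ran from 0.766 to 0.816 in controls and from 1.10 to 1.21 with Erastin. Per kb of transcript, IARS stayed the less abundant with Erastin, at 113 ± 4.12 CPM per kb (SD, n = 3) against 124 ± 2.85 CPM per kb for IARS2. The pair with the lower ratio was that for valine. Its ratio of VARS to VARS2 counts ran from 6.71 to 7.68 in controls and from 5.30 to 6.25 with Erastin. In the gene annotation used here, a non-coding gene on the same strand covers 100% of the VARS2 exons. Reads of VARS2 could have been divided or set aside between the annotations, which was not tested. In KELLY the cytosolic change was the larger in 12 pairs with a median difference of 0.21, and 6 pairs had a higher ratio in all Erastin libraries (CARS, IARS, MARS, NARS, WARS and YARS with their partners). The ratio of IARS to IARS2 in KELLY went from 1.25 to 1.26 in controls to 1.36 to 1.51 with Erastin, although IARS itself had a log2 fold change of 0.01. These ratios share each enzyme's own change and add no independent test.

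**Figure D4:**
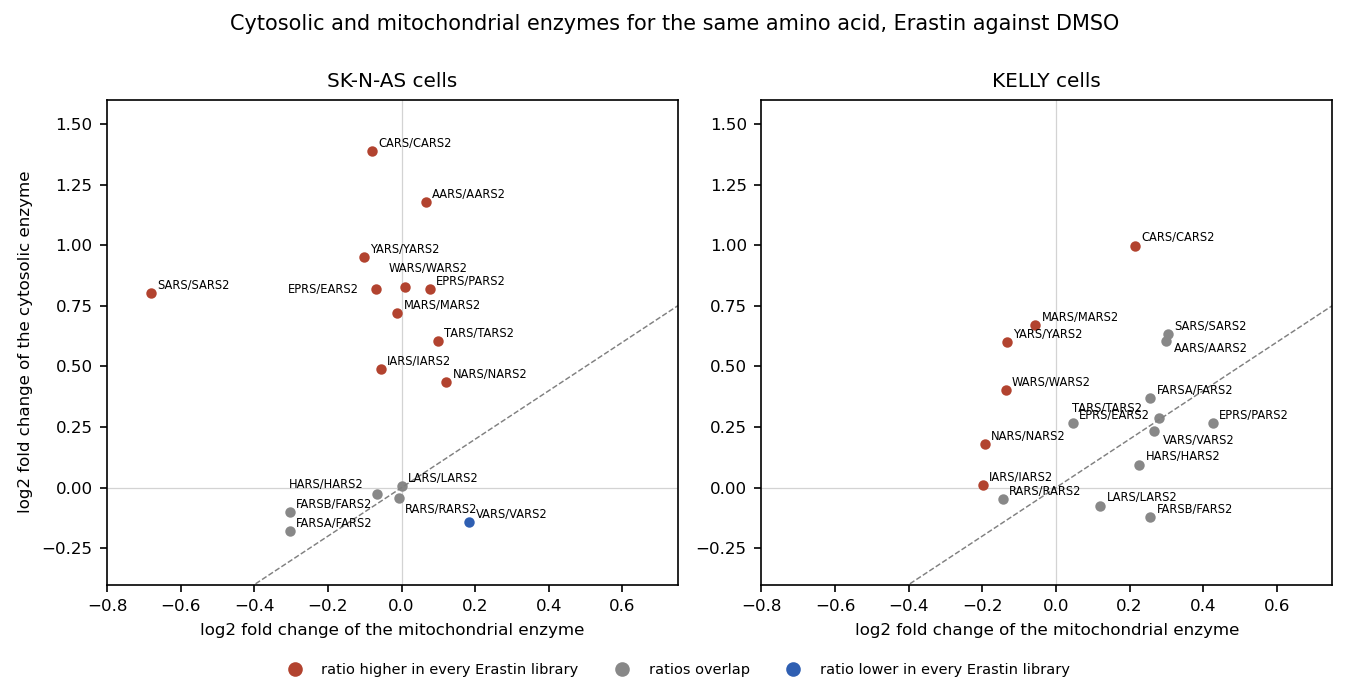
Log2 fold change of each cytosolic enzyme (vertical axis) against that of the mitochondrial enzyme for the same amino acid (horizontal axis), in SK-N-AS and KELLY; the dashed line marks equal change and color shows whether the CPM ratio separated the libraries. In SK-N-AS 15 of 17 pairs lie above the line, with CARS and SARS farthest from it, and in KELLY 12 do. The distance of the SARS pair in SK-N-AS includes a value of -0.68 for SARS2, the lowest of all members in counts.

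The difference between the lines was tested directly. No synthetase gene had an adjusted p under 0.05 for the interaction of treatment and line (edgeR quasi-likelihood test over 12 samples), which 0.00548% of all genes passed. DESeq2 called 1 member, GARS, and 12 of all 18239 genes. At an unadjusted p under 0.05, 7 of the 20 cytosolic genes responded more in SK-N-AS, against 1.78% of all genes. These were GARS (0.81, SE 0.15, unadjusted p = 1.38e-04, adjusted p = 0.361), AARS, EPRS, IARS, WARS, YARS and TARS, the last 6 at 0.31 to 0.57 with adjusted p-values of 0.811. With the GC correction GARS (0.76, adjusted p = 0.00844) and AARS (0.68, adjusted p = 0.0189) passed, as did 0.0713% of all genes. MARS differed by 0.04 (adjusted p = 0.945) and SARS by 0.17 (adjusted p = 0.811). Across the 20 cytosolic genes, the log2 fold changes of the lines, which share no samples, had a Pearson correlation of 0.82 and a Spearman correlation of 0.72 (0.92 and 0.85 GC-corrected). Across the 16 mitochondrial genes these were -0.17 and 0.04.

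Control levels differed between the lines for most synthetases. Of the 36 genes, 8 were higher in SK-N-AS and 11 in KELLY at an adjusted p under 0.05 and a fold of at least 1.5 (edgeR), where 27.8% and 28.2% of all genes were. Without KELLY DMSO 1 the count higher in SK-N-AS was 5. By adjusted p alone 26 of 36 differed, beside 61.3% of all genes. The synthetases thus differed between the lines about as often as other genes.

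WARS was the member most in excess in SK-N-AS, at 130 ± 4.72 CPM (SD, n = 3) against 39.3 ± 1.24 CPM in KELLY, a log2 difference of 1.71 (SE 0.13, adjusted p = 4.91e-06). FARS2 followed at 39.0 ± 2.12 against 12.9 ± 2.77 CPM (1.58, SE 0.19, adjusted p = 9.63e-05). RARS was at 190 ± 12.4 against 107 ± 1.99 CPM (0.81, SE 0.12, adjusted p = 4.16e-04). FARSA was at 170 ± 26.8 against 98.5 ± 33.0 CPM (0.78, SE 0.25, adjusted p = 0.0226), and it lost its call without SK-N-AS DMSO 1, SK-N-AS DMSO 2 or KELLY DMSO 3, and fell under 1.5-fold without KELLY DMSO 1 (0.54). The DMSO libraries of the lines did not overlap for any of the 4. CARS, NARS, IARS2 and HARS2 were also called higher in SK-N-AS, with log2 differences of 0.62 to 0.74.

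NARS2, for mitochondrial asparagine, was the member most in excess in KELLY, at 56.9 ± 10.9 against 18.4 ± 1.31 CPM (-1.64, SE 0.18, adjusted p = 5.72e-05). GARS was at 361 ± 12.6 against 155 ± 10.0 CPM (-1.24, SE 0.12, adjusted p = 2.66e-05), SARS at 264 ± 14.5 against 114 ± 7.53 CPM (-1.23, SE 0.12, adjusted p = 3.48e-05) and MARS2 at 45.8 ± 2.13 against 19.8 ± 1.93 CPM (-1.22, SE 0.15, adjusted p = 1.15e-04). None of the 4 overlapped between the lines. WARS2, EPRS, AARS, QARS, LARS2, YARS2 and TARS were also called higher in KELLY, from -1.10 to -0.68. The tryptophan enzymes thus differed in opposite directions, WARS being higher in SK-N-AS and WARS2 in KELLY (-1.10, adjusted p = 2.71e-04), and the asparagine enzymes did as well. The comparison of control levels shares its DMSO libraries with the Erastin comparisons. With Erastin, GARS in SK-N-AS reached 429 ± 44.4 CPM, above the 361 ± 12.6 CPM of untreated KELLY, whereas SARS reached 197 ± 19.0 CPM, below the 264 ± 14.5 CPM of untreated KELLY.

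**Figure D5:**
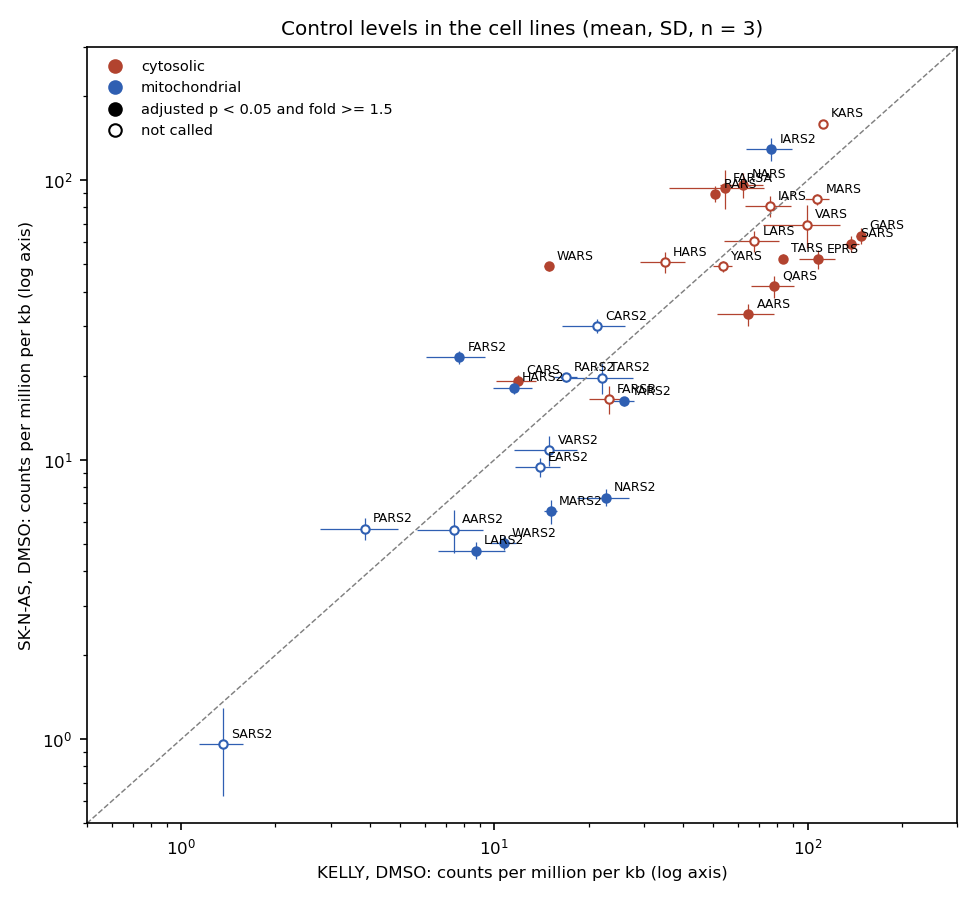
Control level of the named synthetase genes in SK-N-AS against KELLY as CPM per kb of transcript (mean and SD of 3 DMSO libraries, log axes, dashed line of equality); filled points passed an adjusted p of 0.05 and a 1.5-fold difference. WARS and FARS2 lie farthest above the line, and NARS2, MARS2, GARS and SARS among the farthest below it.

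Per kb of transcript, the most abundant synthetase in KELLY controls was GARS at 148 ± 5.18 CPM per kb, followed by SARS at 138 ± 7.56 (SD, n = 3), whose libraries overlapped those of GARS, and KARS at 112 ± 3.23. EPRS at 108 ± 14.1 and MARS at 107 ± 9.39 CPM per kb did not differ from KARS beyond their spread. In SK-N-AS controls KARS led at 160 ± 5.34 CPM per kb, and the mitochondrial IARS2 came next at 130 ± 12.0, ahead of NARS at 96.5 ± 9.66. IARS2 was the most abundant mitochondrial synthetase in both lines, at 76.6 ± 12.8 CPM per kb in KELLY, where it did not differ from IARS at 75.8 ± 12.9. SARS2 was the lowest, at 1.36 ± 0.22 in KELLY and 0.960 ± 0.335 CPM per kb in SK-N-AS. With Erastin, GARS moved from 63.5 ± 4.12 to 176 ± 18.2 CPM per kb in SK-N-AS, next to KARS at 156 ± 2.53. CARS, at 11.9 ± 1.76 CPM per kb, was the lowest cytosolic synthetase of KELLY controls and was at 23.7 ± 1.19 with Erastin, above FARSB and WARS.

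The neighboring machinery was read for context. ATF4 transcript rose in SK-N-AS by 1.51 on the log2 scale (adjusted p = 5.16e-06), from 2826 to 3096 counts in controls to 7850 to 10417 with Erastin. In KELLY it was 0.81 (unadjusted p = 0.00284, adjusted p = 0.770), from 5792 to 8550 counts to 11694 to 13833 with Erastin. None of the 3 scaffold genes of the multi-synthetase complex (AIMP1, AIMP2 and EEF1E1) passed either rule in either line, and all 6 values lay between -0.33 and -0.03. Of 10 other charging and editing genes, 0 passed in either line. XPOT, which exports transfer RNA from the nucleus, came nearest in SK-N-AS at 0.36 (unadjusted p = 0.00249, adjusted p = 0.170, and 1.04e-04 GC-corrected). Of 5 cytosolic elongation factor genes tested, 0 passed, with medians of -0.05 in SK-N-AS and 0.32 in KELLY, and EEF1G was listed at 0 in every library. Of 9 mitochondrial translation factor genes, 0 passed, with medians of -0.09 and -0.11. GC-corrected, 1 elongation factor and 1 mitochondrial translation factor passed an adjusted p of 0.05 in SK-N-AS, both falling, as did 3.81% of all genes.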

How the data were processed

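Raw counts per gene, deposited as 1 table per cell line, were used. Per the labels and the study's methods, the authors trimmed paired-end reads (Trimmomatic), mapped them to GRCh38, obtained HTSeq counts for GENCODE genes and tested with DESeq2; aligner and strand setting are not given in the sources used here. Each line was fitted separately (edgeR 4.0.16 in R 4.3.3; filterByExpr, TMM, quasi-likelihood test, Benjamini-Hochberg adjustment over all genes), control lines likewise, and the interaction over 12 samples. CPM used TMM over 12 samples. GC correction removed, as an offset, each library's loess trend (span 0.5) on transcript GC content (GENCODE 44, GRCh38). Intervals of 95% come from the fit. The named genes were all cytosolic members, mitochondrial members past a call rule, and the 4 largest control differences each way. Members, gene lists and motifs were chosen with earlier results of these data known. The KELLY and SK-N-AS fits without GC correction were tested on simulated counts, which carried no GC trend. The GC-corrected fits were not tested in this way. Alternatives are given in the closing section. Values of 1 cytosolic member and of some marker genes are not reported here one by one.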

Additional observations from a re-analysis of the deposited data

How the results depend on the processing

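Results were recomputed under 18 alternatives in KELLY and 17 in SK-N-AS. No called value changed direction. In KELLY, the 6 cytosolic genes past the study threshold became 2 with the GC correction and 2 with the GC correction and replicate block. The 0 at an adjusted p under 0.05 became 4 with DESeq2, 3 with the GC correction, 4 with all 12 samples in 1 fit and 2 without the pair of libraries with the steepest GC trends, where the medians were 0.32 (cytosolic) and -0.053 (mitochondrial). In SK-N-AS, the 1 mitochondrial gene past the study threshold became 0 with DESeq2 and limma-voom, and the 0 at an adjusted p under 0.05 became 1 with the GC correction and 2 with the GC correction and replicate block. For the interaction, the 0 became 1 with DESeq2 and 2 with the GC correction. The cause was not tested in any of these cases.

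Leaving out 1 library at a time gave 4 to 6 cytosolic and 0 to 1 mitochondrial genes past the study threshold in KELLY, and 8 to 9 and 0 to 1 in SK-N-AS. The SK-N-AS count at an adjusted p under 0.05 ran from 9 to 11 for cytosolic and from 0 to 1 for mitochondrial genes, and the cytosolic median from 0.40 to 0.53. Between the control lines, 5 to 10 genes were higher in SK-N-AS, 5 being the count without KELLY DMSO 1, and the cytosolic median ran from -0.19 to -0.089.

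Samples with the same replicate number did not deviate together (correlations of -0.49, -0.48 and -0.04 in KELLY and of -0.01, 0.06 and 0.12 in SK-N-AS), so the numbers were not taken as pairs. Samples with different numbers gave correlations of -0.24 to 0.54 in KELLY. The deviations include each library's GC trend, so these correlations cannot show whether samples were paired. With a replicate block, 5 cytosolic genes passed the study threshold in KELLY, AARS losing its call, and 11 passed an adjusted p of 0.05 in SK-N-AS. Between the control lines, members that included FARSB, HARS, MARS and CARS2 lost their adjusted p under 0.05, and the counts with the 1.5-fold limit stayed at 8 and 11. Over all genes the block changed the KELLY calls at an adjusted p under 0.05 from 1 to 0 and at the study threshold from 330 to 114, and the SK-N-AS calls at an adjusted p under 0.05 from 106 to 308. In SK-N-AS the calls at an adjusted p under 0.05 were 223 with DESeq2, 265 without a filter, 1121 with the GC correction, 46 with all 12 samples in 1 fit and 53 to 855 with 1 library left out (855 without DMSO 3). In KELLY they were 31, 19, 32, 17 and 0 to 2. Without a filter the study threshold gave 980 calls for KELLY against 851 for SK-N-AS, and 199 for KELLY among protein-coding genes. Counts limit SARS2 and PARS2 most, the members with the fewest over the 12 libraries.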
